A study of Caenorhabditis elegans with 9 samples.

Results

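The GATA factors described here are the transcription factors of Caenorhabditis elegans that build and maintain the intestine and the epidermis: elt-1, elt-2, elt-3, elt-4, elt-6, elt-7, egl-18, end-1 and end-3. Every probe set whose only gene symbol in the platform annotation was 1 of these 9 names was taken, which gave 12 probe sets of 8 genes among the 22548 probe sets tested. No probe set carried the symbol elt-4, so that gene was not analysed here. Whole first-stage (L1) larvae were measured on Affymetrix arrays, with 3 arrays labelled as biological replicates in each of 3 groups. The groups were wild type, the deletion mutant ogt-1(ok430), which lacks the O-GlcNAc transferase, and the deletion mutant oga-1(ok1207), which lacks the O-GlcNAcase, called ogt-1 larvae and oga-1 larvae below. O-GlcNAc is a single sugar that the first enzyme attaches to nuclear and cytoplasmic proteins and the second removes. All groups hatched in sterile buffer from bleached eggs, were collected at 48 h and then fed on OP50 bacteria for 3 h. Their age, food and handling were therefore labelled alike, and each mutant is represented by 1 allele.

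GATA factors carry a zinc finger that binds DNA around the letters GATA. In the worm embryo END-1 and END-3 commit the endoderm founder cell to its fate and switch on ELT-7 and ELT-2, which then hold the intestine in its differentiated state through larval and adult life. ELT-1 commits cells to the epidermis, ELT-3 acts after it in the main body epidermis, and EGL-18 and ELT-6 maintain the seam cells, the stem-like cells along the sides of the larva. In the RefSeq gene order of the WBcel235 assembly egl-18 and elt-6 are direct neighbours, elt-2 and elt-4 have 1 protein-coding gene between them, and end-1 and end-3 have 4.

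The deposited values are log2 signals, on which a difference of 1 is a 2-fold change. Array medians lay between 7.42 and 7.47. The oga-1 signal was lower in oga-1 larvae (8.75 against 9.49 in wild type at probe set 181147_s_at, limma adjusted p = 0.0181). No drop of the ogt-1 gene itself was measured in ogt-1 larvae (9.88 against 9.18 at probe set 181010_s_at, limma adjusted p = 0.0141), so it did not check that label, and directions below rest on the labels. The gap between 3-prime and 5-prime signal of the actin, GAPDH and ubiquitin controls, a measure of RNA quality, was 1.30 ± 0.0434 (SD, n = 3) in wild type, 1.43 ± 0.106 in ogt-1 larvae and 1.22 ± 0.0624 in oga-1 larvae, with overlap between ogt-1 larvae and wild type. The same gap of the catalase control was 0.949 ± 0.206 in wild type, 1.74 ± 0.390 in ogt-1 larvae and 1.04 ± 0.0812 in oga-1 larvae, and all 3 ogt-1 arrays (1.32 to 2.09) lay above the other 6. The part of this gap in the ogt-1 results below was not tested. Within their groups, wild-type array 1, ogt-1 array 1 and oga-1 array 3 had the lowest precision weights in limma (0.612, 0.582 and 0.583, against 0.628 to 2.05 on the other 6 arrays). They are called the 3 arrays that stood apart below. The weight of oga-1 array 3 was close to that of oga-1 array 1 (0.628), so oga-1 array 3 was not clearly apart within its group. Of the 12 GATA probe sets, 6 had their lowest signal of all 9 arrays on ogt-1 array 1.

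Of the intestinal factors, elt-7 fell in ogt-1 larvae, narrowly past the threshold, and elt-2 was lower there but narrowly missed it. None of the epidermal or embryonic factors passed the test in either mutant. The elt-7 probe set (191147_at) measured 9.47, 10.08 and 9.77 on wild-type arrays 1 to 3, 8.72, 9.33 and 8.96 on the ogt-1 arrays and 9.47, 9.59 and 9.53 on the oga-1 arrays. All 3 ogt-1 arrays lay below the other 6, and the oga-1 arrays lay within the wild-type range. The signal fell from 9.77 ± 0.302 (SD, n = 3) to 9.0 ± 0.306, a log2 change of -0.77 ± 0.17 (SE) or 1.71-fold (limma adjusted p = 0.0481). The threshold was an adjusted p of 0.05. The call was lost without wild-type array 2 or 3, ogt-1 array 1 or 3 or any oga-1 array (adjusted p = 0.0720 to 0.177), with only the 2 groups in the fit (adjusted p = 0.119) and in a fit that held the control gap constant (log2 change -0.57, adjusted p = 0.561). The gap held constant, here and below, was that of the actin, GAPDH and ubiquitin controls and not that of catalase. That fit called 49 of 22548 probe sets in ogt-1 larvae. Without the 3 arrays that stood apart the elt-7 change was -0.78 (adjusted p = 0.0764). With the replicate number as a block the adjusted p was 0.00863, in a fit that called 4.59% of all probe sets.

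The elt-2 gene, whose product is the main regulator of the larval and adult intestine, has a pair of unmarked probe sets. At probe set 193259_at the wild-type arrays measured 9.09, 8.89 and 8.94, the ogt-1 arrays 8.02, 8.20 and 8.70, and the oga-1 arrays 8.53, 8.41 and 8.50. At probe set 175269_at they measured 6.16, 5.98 and 5.999, then 5.55, 5.60 and 5.78, and then 5.57, 5.71 and 5.55. At both probe sets every array of either mutant lay below every wild-type array. Over all probe sets this held for 11.0% in ogt-1 larvae and 6.66% in oga-1 larvae, and the share for both at once was not counted. The signal at 175269_at was low, with means of 6.05 in wild type, 5.64 in ogt-1 larvae and 5.61 in oga-1 larvae. Both mutant means lay under 5.67, the cut of the low-signal filter described below. The log2 change in ogt-1 larvae was -0.66 ± 0.15 at 193259_at (95% interval -1.004 to -0.32, limma adjusted p = 0.0535) and -0.41 ± 0.09 at 175269_at (-0.61 to -0.20, limma adjusted p = 0.0550). Neither passed the threshold. With the replicate block 193259_at did (adjusted p = 0.0410) and 175269_at did not (adjusted p = 0.0653). The change at 193259_at was -0.86 and passed without ogt-1 array 3 (adjusted p = 0.00934), and it was -0.46 without the 3 arrays that stood apart (adjusted p = 0.254).

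**Figure D1:**
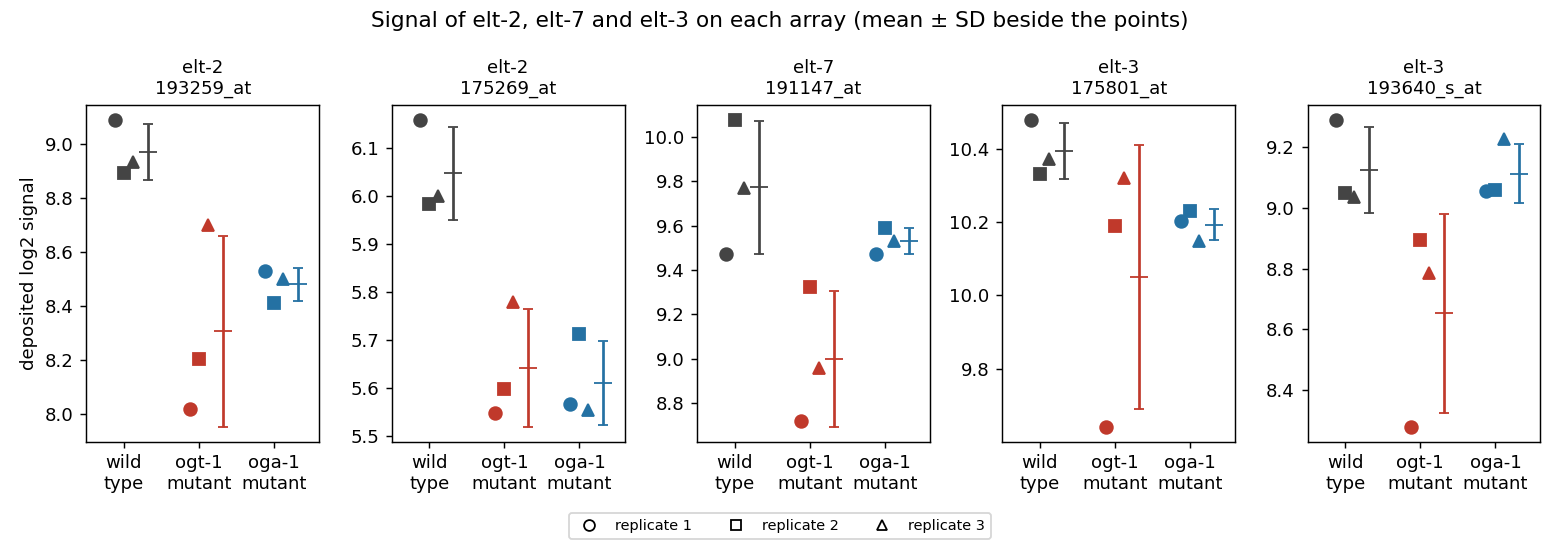
Deposited log2 signal (y axis, with its own range in each panel) of the probe sets of elt-2, elt-7 and elt-3 on each of the 9 arrays, by genotype, with the replicate number as the marker shape and the mean ± SD of 3 arrays beside the points. Both elt-2 panels show the 6 mutant arrays below the 3 wild-type arrays, the elt-7 panel shows the ogt-1 arrays (8.72 to 9.33) below the other 6, and both elt-3 panels show ogt-1 array 1 far below the rest.

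The elt-2 changes in oga-1 larvae were -0.49 ± 0.15 at 193259_at (95% interval -0.83 to -0.15, limma adjusted p = 0.264) and -0.44 ± 0.09 at 175269_at (-0.65 to -0.23, limma adjusted p = 0.103). Neither was called. The comparisons of ogt-1 and oga-1 larvae use 1 set of 3 wild-type arrays, whose chance deviations enter both. Between the mutants elt-2 differed by -0.17 ± 0.15 at 193259_at (-0.51 to 0.17) and by 0.03 ± 0.09 at 175269_at (-0.18 to 0.24), with ogt-1 and oga-1 arrays overlapping at both. The elt-7 change in oga-1 larvae was -0.24 ± 0.17 (-0.63 to 0.14, limma adjusted p = 0.625). The elt-7 difference between ogt-1 and oga-1 larvae was -0.53 ± 0.17, with no overlap, and was not called (limma adjusted p = 0.126). It was called with the replicate block (adjusted p = 0.0334), in a fit that called 5.0% of all probe sets. In RNA of whole larvae, fewer intestinal cells and less RNA per cell cannot be told apart.

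Among the epidermal factors no probe set passed the test in any comparison. For elt-3, probe set 175801_at measured 10.48, 10.33 and 10.37 in wild type, 9.64, 10.19 and 10.32 in ogt-1 larvae and 10.20, 10.23 and 10.15 in oga-1 larvae. Probe set 193640_s_at, whose suffix marks possible cross-hybridisation, measured 9.29, 9.05 and 9.04 in wild type, 8.28, 8.90 and 8.79 in ogt-1 larvae and 9.06, 9.06 and 9.23 in oga-1 larvae. The ogt-1 arrays lay below wild type at both, with array 1 far below its own group. The changes were -0.34 ± 0.15 at 175801_at (limma adjusted p = 0.309) and -0.47 ± 0.15 at 193640_s_at (limma adjusted p = 0.153), and without ogt-1 array 1 they were -0.14 and -0.29. The changes in oga-1 larvae were -0.20 ± 0.15 at 175801_at, where the groups did not overlap, and -0.01 ± 0.15 at 193640_s_at, where they did. Between ogt-1 and oga-1 larvae 193640_s_at differed by -0.46 ± 0.15 with no overlap (limma adjusted p = 0.132), and 175801_at by -0.14 ± 0.15 with overlap.

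The epidermal selector elt-1 has 1 probe set (192655_s_at), which is marked. It measured 8.73, 8.73 and 8.92 in wild type, 8.45, 8.71 and 8.84 in ogt-1 larvae and 9.07, 8.58 and 9.03 in oga-1 larvae. The 3 groups overlapped. The changes were -0.13 (95% interval -0.45 to 0.20) in ogt-1 larvae and 0.10 (-0.22 to 0.43) in oga-1 larvae.

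The seam cell factors egl-18 and elt-6 overlapped between wild type and each mutant at all 4 of their probe sets. Probe set 175050_at of elt-6 measured 10.98, 10.75 and 10.74 in wild type, 10.74, 10.82 and 10.66 in ogt-1 larvae and 10.37, 10.74 and 10.59 in oga-1 larvae. Its change was -0.08 (95% interval -0.33 to 0.17) in ogt-1 larvae and -0.25 (-0.50 to -0.005) in oga-1 larvae (limma adjusted p = 0.423). The other elt-6 probe set (185110_at) spanned 10.10 to 10.41 in wild type, 10.16 to 10.24 in ogt-1 larvae and 9.90 to 10.53 in oga-1 larvae. Its changes were -0.02 (-0.36 to 0.32) and -0.06 (-0.40 to 0.28). For egl-18, the marked probe set 174926_s_at spanned 9.92 to 10.18 in wild type, 10.14 to 10.32 in ogt-1 larvae and 9.72 to 10.25 in oga-1 larvae. The egl-18 changes in ogt-1 larvae were 0.15 (-0.15 to 0.46) at 174926_s_at and 0.20 (-0.19 to 0.59) at 190079_at. In oga-1 larvae they were -0.01 (-0.32 to 0.30) and 0.03 (-0.35 to 0.42). At 190079_at the oga-1 arrays spread from 7.81 to 8.60, wider than wild type (8.09 to 8.31) and ogt-1 larvae (8.25 to 8.54).

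The embryonic pair end-1 and end-3 had its highest group means in oga-1 larvae, where neither gene passed the test. Probe set 193616_at of end-3 measured 7.43, 7.44 and 7.56 in wild type, 7.65, 7.49 and 7.62 in ogt-1 larvae and 7.63, 7.71 and 8.20 in oga-1 larvae. All 3 oga-1 arrays lay above wild type, with array 3 far above its own group. Probe set 193618_at of end-1 measured 6.45, 6.70 and 6.79 in wild type, 6.75, 6.51 and 6.81 in ogt-1 larvae and 6.78, 7.07 and 7.11 in oga-1 larvae, where 1 array overlapped wild type. The changes in oga-1 larvae were 0.38 ± 0.14 for end-3 (limma adjusted p = 0.347) and 0.34 ± 0.13 for end-1 (limma adjusted p = 0.363). Without oga-1 array 3 the end-3 change was 0.20. In ogt-1 larvae the changes were 0.11 ± 0.14 for end-3 and 0.05 ± 0.13 for end-1. Beside this, 6 of 6 markers of the early embryo, among them pes-10 and tbx-35, had a positive change in oga-1 larvae, with a median of 0.13. Over all probe sets 12060 of 22548 changes were positive, beside the 6 of 6 embryo markers. Their signal was mostly low. Wild-type means were 4.44 for pes-10, 4.13 for tbx-35, 4.13 for tbx-37, 5.04 for ceh-51, 5.51 for hnd-1 and 6.36 for tbx-38. All but tbx-38 lay under 5.67 in wild type, the cut of the low-signal filter described below. Limma called 0 of these 6 markers in oga-1 larvae, against 0.497% of all probe sets. Of the 6, 2 (ceh-51 and hnd-1) had an unadjusted p under 0.05, against 11.5%. The mean signal of that list lay between 4.90 and 4.97 on wild-type arrays, 4.94 and 5.02 on ogt-1 arrays and 5.01 and 5.20 on oga-1 arrays. The part of embryonic RNA in the end-1 and end-3 values was not tested.

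**Figure D2:**
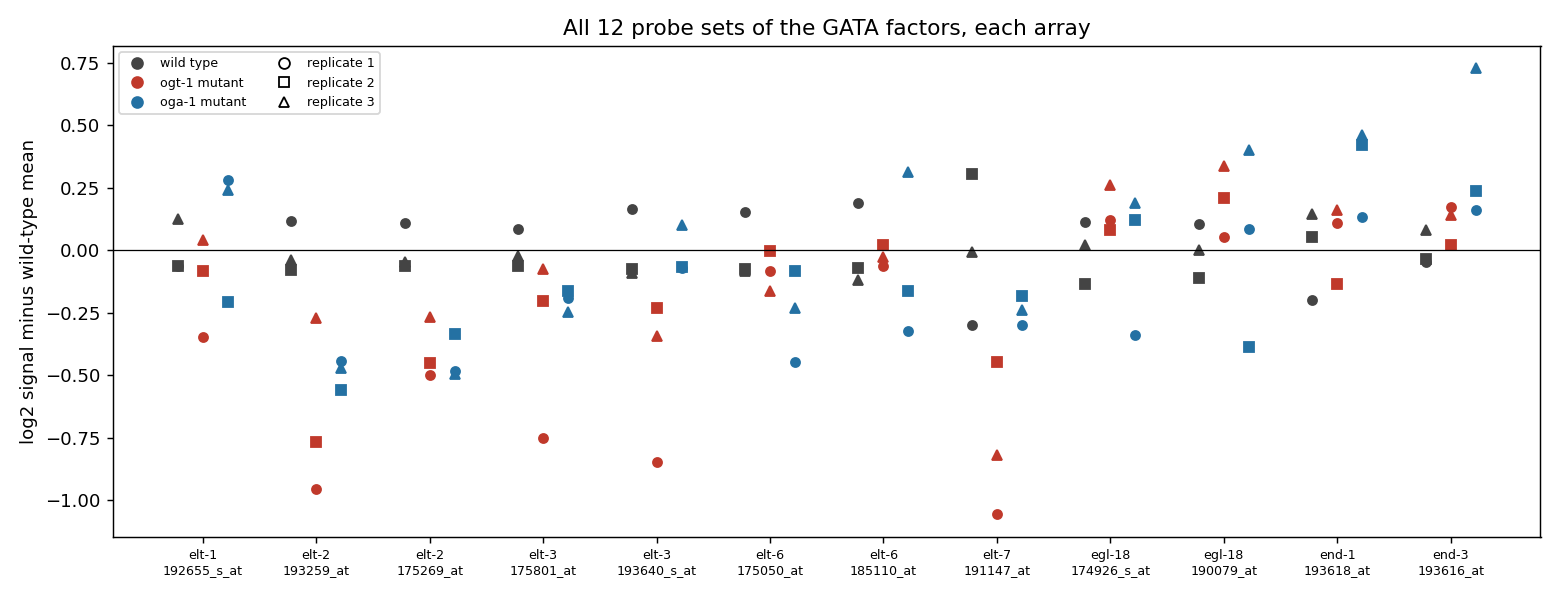
Log2 signal of each array minus the wild-type mean of that probe set (y axis) for the 12 probe sets of the 8 measured GATA factors (x axis), coloured by genotype, with the replicate number as the marker shape. All arrays of both mutants lie below 0 at both elt-2 probe sets, and also at elt-7, elt-3 at 175801_at and elt-6 at 175050_at. The end-3 probe set reaches its highest value on oga-1 array 3.

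Counted together, limma called 1 of 12 GATA probe sets in ogt-1 larvae (elt-7), against 2.59% of all probe sets. It was a lower call, against 1.4% of all probe sets called lower, and 0 of 12 were called higher, against 1.19%. Unadjusted p lay under 0.05 for 5 of 12, against 15.8% of all probe sets. Those 5 probe sets belong to elt-2, elt-3 and elt-7, and they are also the 5 whose ogt-1 arrays all lay below wild type, against 11.0% of all probe sets. At 0 of 12 did all ogt-1 arrays lie above wild type, against 9.98%. The 5 come from 3 genes, and probe sets of 1 gene are not independent.

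Limma called 0 of 12 in oga-1 larvae, against 0.497% of all probe sets (0.386% higher and 0.111% lower), and 0 of 12 with the replicate block, against 0.723%. An unadjusted p under 0.05 was found for 5 of 12 (both probe sets of elt-2, elt-6 at 175050_at, end-1 and end-3), against 11.5%. The oga-1 arrays all lay below wild type at 3 of 12 probe sets (both of elt-2 and 1 of elt-3), against 6.66%, and all above it at 1 of 12 (end-3), against 9.41%. Between the mutants limma called 0 of 12, against 2.89% (1.57% lower and 1.32% higher in ogt-1 larvae). An unadjusted p under 0.05 was found there for 3 of 12 (elt-7, elt-3 at 193640_s_at, and end-1), against 20.5%, a share of the members close to the background. All ogt-1 arrays lay below all oga-1 arrays at 2 of 12 (elt-7 and elt-3 at 193640_s_at), against 12.6%, and above them at 0 of 12, against 10.3%. The median change over the 12 probe sets was -0.11 in ogt-1 larvae and -0.03 in oga-1 larvae, and over all probe sets it was 0.00 and 0.01.

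**Figure D3:**
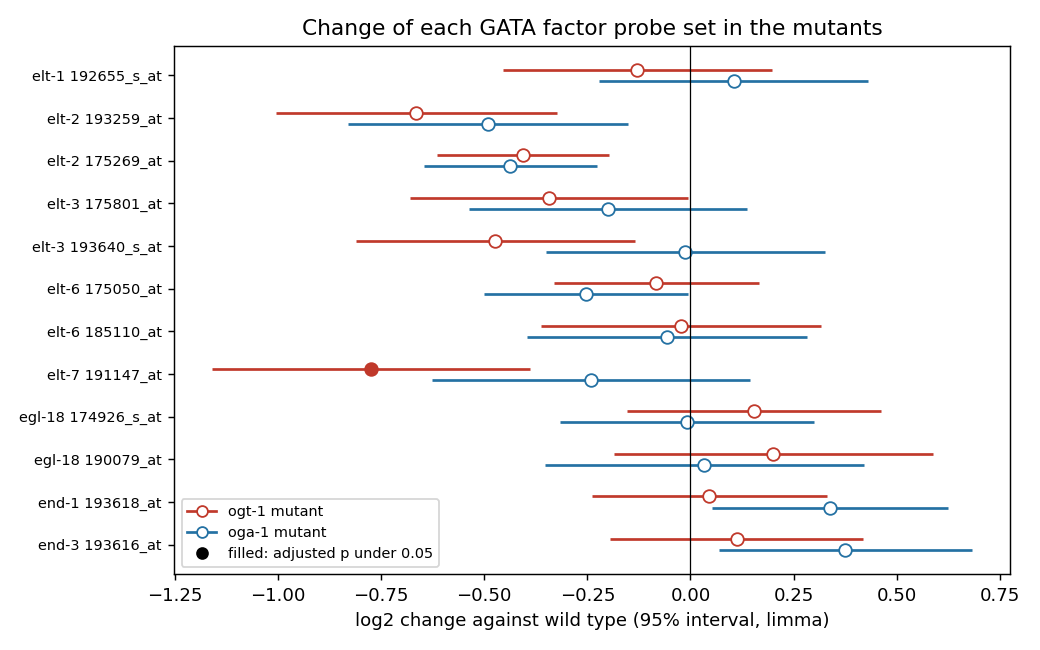
Log2 change against wild type (x axis) with its 95% interval from limma for each GATA probe set (y axis), in ogt-1 larvae (red) and oga-1 larvae (blue), 3 arrays per group, filled where the adjusted p was under 0.05. The only filled point is elt-7 in ogt-1 larvae at -0.77, and the intervals of elt-2 exclude 0 in both mutants although neither change was called.

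Unequal change of related factors was examined within arrays, where the difference between 2 probe sets of 1 array was compared between genotypes. The pairs were elt-7 with elt-2, elt-6 with egl-18, end-1 with end-3 and elt-3 with elt-1. The elt-7 signal minus the elt-2 signal was 0.801 ± 0.402 (SD, n = 3) in wild type, 0.691 ± 0.433 in ogt-1 larvae and 1.05 ± 0.118 in oga-1 larvae. No unequal change of these factors was detectable between ogt-1 larvae and wild type (difference -0.11, two-sided exact permutation p = 0.7) or between oga-1 larvae and wild type (0.25, exact permutation p = 0.5). The largest difference was between ogt-1 and oga-1 larvae (-0.36, exact permutation p = 0.3), with overlap. It was lower in ogt-1 larvae in 3 of 3 same-numbered pairs. Each gene was represented by its probe set of highest mean. For elt-6 minus egl-18 these were 175050_at and 174926_s_at, and the other probe sets of these genes were not paired. The oga-1 arrays (0.34 to 0.65) all lay below wild type (0.66 to 0.82), but narrowly (highest oga-1 value 0.653, lowest wild-type value 0.660). This was at the smallest exact permutation p that 3 arrays against 3 can give, 0.1. Adjusted over the 12 tests, this p was 0.72. The same difference in ogt-1 larvae was of like size (-0.24 against -0.24 in oga-1 larvae), with overlap (exact permutation p = 0.2), and was lower than wild type in 3 of 3 same-numbered pairs. An exact sign-flip test of these pairs, added after the values were seen, gave p = 0.25, the smallest that 3 pairs allow. The other tests gave exact permutation p from 0.2 to 1, so none of the 12 passed, and 3 arrays against 3 could not pass 0.05.

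**Figure D4:**
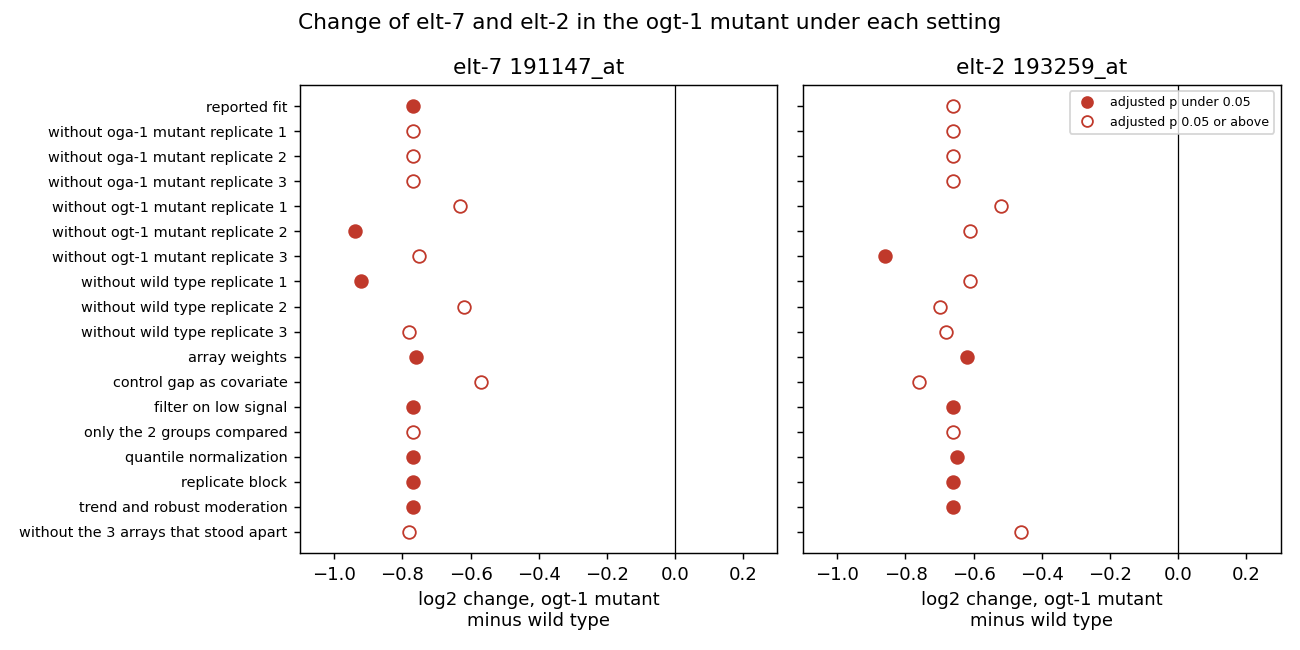
Log2 change between ogt-1 larvae and wild type (x axis) of elt-7 and of elt-2 at 193259_at in the reported fit and in each of 17 alternatives (y axis), filled where the adjusted p was under 0.05. The change was negative in every setting shown, from -0.94 to -0.57 for elt-7 and from -0.86 to -0.46 for elt-2, and the side of the threshold moved with the setting for both.

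The genes around these factors were examined as lists. Of 18 genes of the differentiated intestine, 0 rose, 2 fell and 16 were not called in ogt-1 larvae, where 1.19% of all probe sets were called higher and 1.4% lower. An unadjusted p under 0.05 was found for 4 of the 18, against 15.8% of all probe sets, and the median was -0.16 against 0.00. The cathepsin B-like protease gene cpr-5 (marked) measured 11.45, 11.80 and 12.11 in wild type, 10.70, 10.51 and 10.75 in ogt-1 larvae and 11.74, 11.52 and 11.67 in oga-1 larvae. Its ogt-1 arrays lay far below the other 6, with a log2 change of -1.13 ± 0.15 against wild type (limma adjusted p = 0.00653). The gene nhx-2, which encodes a sodium-proton exchanger of the intestine's apical membrane, measured 9.79, 9.71 and 9.67 in wild type, 8.88, 9.16 and 8.93 in ogt-1 larvae and 9.92, 9.82 and 9.25 in oga-1 larvae. Its ogt-1 arrays also lay below the rest, with a change of -0.74 ± 0.16 (limma adjusted p = 0.0444). Leaving out any single wild-type or ogt-1 array, oga-1 array 2 (adjusted p = 0.0577 to 0.151) or the 3 arrays that stood apart (adjusted p = 0.0502) ended the nhx-2 call. In the fit that held the control gap constant neither was called, at -1.29 for cpr-5 (adjusted p = 0.0577) and -0.73 for nhx-2 (adjusted p = 0.379). Named here outside the rule, as well known targets of intestinal GATA factors, the esterase gene ges-1 gave -0.17 and the aspartic protease gene asp-1 0.00, neither called. The change was -0.50 ± 0.15 for the protease gene cpr-6 (limma adjusted p = 0.132, and 0.0296 with the replicate block). Limma called 0 of the 18 in oga-1 larvae, against 0.497% of all probe sets, with a median of 0.01. An unadjusted p under 0.05 was found there for 3 of the 18, against 11.5% of all probe sets. Between the mutants 1 was higher in ogt-1 larvae (mtl-2, a metallothionein gene, by 0.57 ± 0.12, limma adjusted p = 0.0418, marked), 1 was lower (cpr-5, by -0.99 ± 0.15, limma adjusted p = 0.0121) and 16 were not called. Over all probe sets 1.32% were called higher and 1.57% lower in ogt-1 larvae than in oga-1 larvae. Of the 18 differences 16 were negative, against 12259 of 22548 over all probe sets, with a median of -0.19 and 6 at an unadjusted p under 0.05 (20.5% of all probe sets). The mtl-2 call ended without any single ogt-1 array, oga-1 array 2 or 3 or wild-type array 2 (adjusted p = 0.0695 to 0.118), and without the 3 arrays that stood apart (adjusted p = 0.151). The mean signal of the list lay between 10.39 and 10.45 on wild-type arrays, 10.14 and 10.32 on ogt-1 arrays and 10.31 and 10.54 on oga-1 arrays. The list was chosen with earlier results of these data known, so it is no independent evidence of a direction.

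Upstream of the endoderm factors, 0 of 9 genes, among them the maternal factor skn-1 and the Wnt pathway effector pop-1, were called by limma in any comparison, with 1 or 2 at an unadjusted p under 0.05 in each. Of all probe sets limma called 2.59% in ogt-1 larvae, 0.497% in oga-1 larvae and 2.89% between the mutants. An unadjusted p under 0.05 was found for 15.8%, 11.5% and 20.5% of them. These shares also stand beside the 2 lists that follow. The pop-1 probe set gave 5.49, 5.51 and 5.83 in wild type and 6.70, 5.77 and 6.84 in ogt-1 larvae, with 1 array within the wild-type range (0.83 ± 0.25, limma adjusted p = 0.129, and 0.0262 with the replicate block). The list medians were 0.01 in ogt-1 larvae and -0.07 in oga-1 larvae. Of 5 other genes with GATA-type fingers 3 were measured (med-1, egl-27 and lin-40), and limma called 0 in any comparison, with medians of -0.03 and -0.16. Only lin-40 between the mutants had an unadjusted p under 0.05 among these 3. Of 11 regulators of epidermal and seam cell fate 8 were measured and limma called 0 in any comparison, with 0 at an unadjusted p under 0.05 and medians of -0.05 and -0.02. The seam gene ceh-16 gave -0.37 ± 0.18 in ogt-1 larvae (limma adjusted p = 0.378).

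Of 12 epidermal genes, mostly collagens of the cuticle, 11 were measured and limma called 0 in either mutant against wild type, with 2 at an unadjusted p under 0.05 in ogt-1 larvae (15.8% of all probe sets) and 7 in oga-1 larvae (11.5%). Over all probe sets limma called 2.59% in ogt-1 larvae and 0.497% in oga-1 larvae. The median of the 11 genes was -0.02 in ogt-1 larvae and 0.31 in oga-1 larvae. In oga-1 larvae 10 of 11 changes were positive, against 12060 of 22548 over all probe sets. The hedgehog-related gene grd-10 had the largest of these, with all oga-1 arrays above wild type (1.22 ± 0.27, limma adjusted p = 0.113, and 0.0210 with the replicate block), and it was 0.73 without the 3 arrays that stood apart. Between the mutants 2 were lower in ogt-1 larvae, the collagen gene dpy-17 (6.31 against 6.86, -0.56 ± 0.09, limma adjusted p = 0.0125) and grd-10 (8.95 against 10.14, -1.19 ± 0.27, limma adjusted p = 0.0497), and 9 were not called. Over all probe sets 1.57% were called lower there. An unadjusted p under 0.05 was found there for 8 of the 11, against 20.5% of all probe sets. With the replicate block the collagen gene dpy-8, named outside the rule and marked, was called too (-0.58 ± 0.15, adjusted p = 0.0191, and 0.0723 without the block). The dpy-17 call was kept without each array in turn and was lost with the control gap held constant (-0.32, adjusted p = 1) and without the 3 arrays that stood apart (-0.50, adjusted p = 0.0975). The grd-10 call was lost without any 1 mutant array or wild-type array 2 (adjusted p = 0.0530 to 0.152), and without the 3 arrays that stood apart (-0.87, adjusted p = 0.0714). The gene che-14, which encodes a sterol-sensing domain protein of ectodermal cells, gave -0.49 ± 0.12 in ogt-1 larvae (limma adjusted p = 0.0627, and 0.0214 with the replicate block), and the collagen gene dpy-3 gave 0.38 ± 0.10 in oga-1 larvae (limma adjusted p = 0.168). The elt-1, egl-18 and elt-6 probe sets overlapped between the mutants, as did elt-3 at 175801_at.

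**Figure D5:**
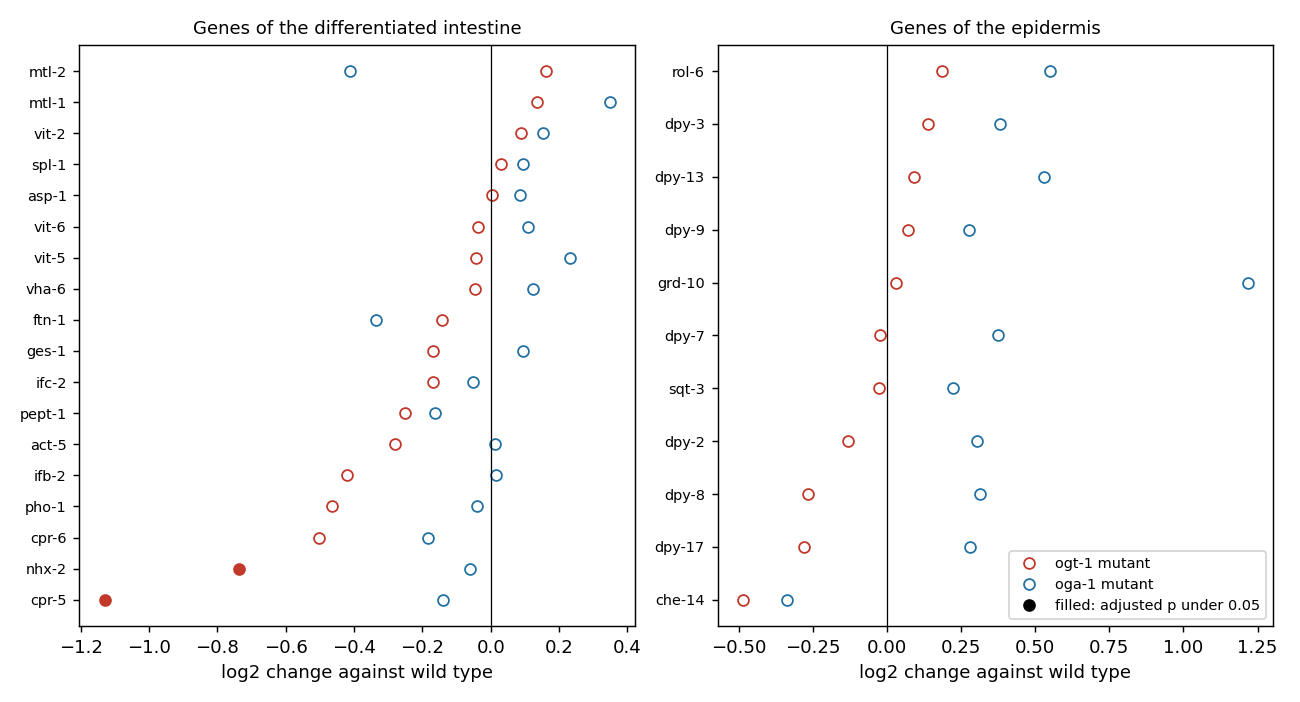
Log2 change against wild type (x axis) of 18 genes of the intestine and 11 genes of the epidermis (y axis, ordered by the change in ogt-1 larvae), in ogt-1 larvae (red) and oga-1 larvae (blue), filled where the adjusted p was under 0.05. The filled points are cpr-5 and nhx-2 in ogt-1 larvae, and 10 of 11 epidermal genes lie above 0 in oga-1 larvae, none of them called.

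Markers of the other cell types of a larva were counted in the same way, and limma called 0 of 5 body wall muscle genes, 0 of 6 neuronal genes, 0 of 5 pharyngeal genes and 0 of 7 germline genes in any comparison. At an unadjusted p under 0.05 there were 1, 1, 1 and 2 of them in ogt-1 larvae (15.8% of all probe sets) and 3, 0, 1 and 0 in oga-1 larvae (11.5%). Between the mutants there were 2, 2, 0 and 1 (20.5%). In ogt-1 larvae their medians were 0.10, -0.05, -0.02 and -0.17, and in oga-1 larvae 0.30, -0.09, -0.10 and -0.11. Of all probe sets limma called 2.59% in ogt-1 larvae, 0.497% in oga-1 larvae and 2.89% between the mutants. The part of changed tissue proportions in the elt-2 and elt-7 values was not tested.

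The genes whose signal followed an intestinal or epidermal factor most closely were found by Pearson's r over the 9 arrays, among the probe sets that stood for 8519 genes. Such values describe these arrays, in which genotype, depth of signal and RNA quality are shared by all genes. The closest to elt-7 were adk-1, an adenosine kinase gene (r = 0.986), F16F9.4 (r = 0.985), C33H5.13 (r = 0.984) and gcs-1, whose product makes a precursor of glutathione (r = 0.978). F16F9.4 and C33H5.13 fell in ogt-1 larvae, by 0.645 and 0.575 log2 units. The closest to elt-2 were T07D3.4 (r = 0.967), the iron exporter gene fpn-1.1 (r = 0.941), the protein disulphide isomerase gene pdi-1 (r = 0.940) and C33D9.3 (r = 0.938), none of them called in ogt-1 larvae. The closest to elt-3 were Y119D3B.21 (r = 0.931), the membrane-cytoskeleton linker gene erm-1 (r = 0.927), B0457.2 (r = 0.920) and the phosphatase gene gsp-1 (r = 0.917), also not called.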

How the data were processed

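The table holds 1 deposited log2 signal per probe set and array for 9 arrays (3 per genotype). MAS5, RMA and Partek are named, per the submitters' processing notes, with no role for each. The build and any background step are not given in those sources, and base 2 of the log was taken from the range of the values (3.74 to 14.9), not from a label. The authors' values were already on 1 scale, and 37.5% of probe sets (3 of the 12 GATA ones) hold a value that is identical on more than 1 array. After 77 control probe sets were left out, the remaining 22548 went into limma 3.58.1 under R 4.3.3 (lmFit and eBayes, 9 arrays, 1 coefficient per genotype, no block), with Benjamini-Hochberg adjustment across that whole table. Limma was tested on simulated data. Differences between 2 probe sets within an array were compared by exact permutation (SciPy 1.17.1). The number of arrays limits precision, and the labels say biological replicate without naming separate cultures, so p-values measure the spread between these arrays.

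The members and the 10 gene lists were chosen with earlier results of these data known. Named were all member probe sets and the 4 genes most like elt-2, elt-3 and elt-7 among probe sets with a mean at or above the median. For each list the rule picked its 4 genes of smallest p, or 2 in a list with no call. Not every gene so picked is named above, for example unc-54, unc-31 and pgl-1. Other list genes, among them ges-1, asp-1, dpy-8, pes-10, tbx-35 and med-1, were named outside this rule. The probe set with the highest mean stood for a gene, and names were updated to RefSeq where the gene ID matched (20701 of 20766 probe sets). Suffixes _s_at and _x_at mark possible cross-hybridisation. Same-numbered arrays deviated together with r from 0.10 to 0.30 (ogt-1 mutant with wild type), 0.11 to 0.32 (ogt-1 with oga-1 mutant) and 0.01 to 0.21 (oga-1 mutant with wild type). These ranges overlap and the labels state no pairing, so the block was run as an alternative in every comparison. Alternatives were each array left out, the block, 2 groups only, a filter (highest group mean at least 5.67, 17284 probe sets), trend and robust moderation, quantile normalization, array weights, the control gap and the 3 arrays left out.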

Additional observations from a re-analysis of the deposited data

Results flagged for a closer look

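The difference between the mutants passed the limma test for 4 genes named beside the GATA factors. Measured as the ogt-1 change minus the oga-1 change, it was -0.99 for cpr-5, 0.57 for mtl-2, -0.56 for dpy-17 and -1.19 for grd-10. No GATA factor probe set did so in the reported fit. For 2 marker genes all arrays of the mutants lay on opposite sides of the wild-type mean, the neuronal gene unc-64 (0.27) and the pharyngeal gene myo-1 (0.36). Both values are the difference between the mutants on the log2 scale. For these 2 the difference between the mutants was not called by limma (adjusted p = 0.244 and 0.315). The wild-type arrays themselves spread from 8.66 to 9.01 for unc-64, a range that held all 3 ogt-1 arrays (8.90 to 8.98). For myo-1 they spread from 12.04 to 12.92, a range that held every array of both mutants (12.07 to 12.75). The share of all probe sets with this pattern was not counted.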

How the results depend on the processing

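Over 36 changes of GATA probe sets under 17 alternatives each, 557 of 612 values kept direction and side of the threshold, 10 lost a call (all elt-7 in ogt-1 larvae), 9 gained one and 36 turned sign. The count of GATA probe sets called in ogt-1 larvae, 1 in the reported fit, ranged from 0 to 1 without each array. It was 3 with array weights or with trend and robust moderation, 2 with the filter, quantile normalization or the replicate block, and 0 with the control gap, the 2 groups alone (fewer samples) or without the 3 arrays. In oga-1 larvae it was 0 under every alternative run, and between the mutants 0 except for 1 (elt-7) with the replicate block. The count of intestinal genes called in ogt-1 larvae, 2 in the reported fit, ranged from 1 to 2 without each array and was 0 with the control gap, 1 without the 3 arrays and 3 with the replicate block. Where no reason is given, the cause was not tested.

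Sign changes were of values that were never called. In ogt-1 larvae against wild type, elt-6 at 185110_at became 0.05 (array weights), 0.14 (control gap) and 0.09 (without the 3 arrays), with -0.08 to 0.07 without each array. For end-1 these were -0.06, -0.13 and -0.08, with -0.05 to 0.14. In oga-1 larvae against wild type, elt-3 at 193640_s_at became 0.02 (array weights), 0.03 (quantile normalization) and 0.01 (without the 3 arrays), with -0.07 to 0.07 without each array. For egl-18, 174926_s_at became 0.05 (array weights), 0.03 (control gap) and 0.01 (quantile normalization), with -0.11 to 0.16, and 190079_at became -0.04 (array weights), -0.07 (control gap) and -0.10 (without the 3 arrays), with -0.15 to 0.24. For elt-6, 185110_at ran from -0.24 to 0.08 without each array. Between the mutants, elt-2 at 175269_at became -0.09 (control gap), with -0.04 to 0.08, elt-3 at 175801_at 0.04 (without the 3 arrays), with -0.28 to 0.06, and cpr-6 0.06 (control gap). Without each array, 185110_at ran from -0.10 to 0.22, 174926_s_at from 0.00 to 0.26 and 190079_at from -0.04 to 0.35. Signal over background was not assessed, as the table used here holds no detection values. Over all probe sets limma called 584 in ogt-1 larvae, 112 in oga-1 larvae and 652 between the mutants. In the same order the counts were 49, 25 and 9 with the control gap, 270, 46 and 336 with 2 groups alone, and 262, 9 and 188 without the 3 arrays. The replicate block gave 1034, 163 and 1128, and array weights 1295, 141 and 547. Leaving out each array gave 138 to 533, 27 to 96 and 255 to 803.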

Other observations

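Some deposited values of the GATA factors are identical to the last digit on different arrays. The elt-7 signal is the same on wild-type array 1 and oga-1 array 1 (9.47), that of elt-1 on wild-type array 1 and 2 (8.73) and that of elt-6 at 175050_at on wild-type array 3, ogt-1 array 1 and oga-1 array 2 (10.74). Between the mutants all 11 measured epidermal genes had a lower mean in ogt-1 larvae than in oga-1 larvae (median -0.40, 2 called), as had 16 of 18 intestinal genes (median -0.19) and 12259 of 22548 of all probe sets (median -0.02). Limma called 1.57% of all probe sets lower in ogt-1 larvae than in oga-1 larvae.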
